A study of Homo sapiens with 36 samples.

Results

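The thrombospondins are a family of secreted matrix glycoproteins, and all 5 human genes, THBS1, THBS2, THBS3, THBS4 and COMP, were taken by symbol from the count table of human neural stem cells with altered MEIS1 or MEIS2. All 5 passed the filter on low counts, among 19689 genes tested of 28516 listed. The cells (hNSC) were a commercial human neural stem cell line. They were transduced with lentivirus, harvested 48 h later and measured by RNA-seq of poly-A RNA, with 6 libraries in each of 6 conditions. In MEIS1-OE and MEIS2-OE, a catalytically dead Cas9 fused to the activator VP64, together with further activators recruited through the guide RNA, was directed to MEIS1 or MEIS2 by 1 guide each (CRISPR-activation). In MEIS1-KO and MEIS2-KO, active Cas9 was used with a 1:1 mix of 2 guides per gene. Each control (ctrl-OE or ctrl-KO) carried the same machinery as their arm with non-targeting guides, so every library came from transduced cells, and the arms differ in the whole CRISPR system. The methods name no drug selection and no cloning step, and nothing stated that the 6 libraries of a condition were separate cultures, so p-values describe the spread between these libraries, which may be technical.

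Thrombospondins are released into the matrix around cells, where they bind receptors, growth factors, proteases and collagens rather than building fibres themselves. THBS1 and THBS2 assemble as trimers and carry type 1 repeats that bind CD36, while THBS3, THBS4 and COMP assemble as pentamers and lack those repeats. In the nervous system thrombospondins are best known as proteins that astrocytes secrete to promote the formation of excitatory synapses, through the calcium channel subunit CACNA2D1 and the adhesion protein NLGN1. MEIS1 and MEIS2 are homeodomain transcription factors that bind DNA with the core letters TGACAG, often beside a PBX partner.

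For the genes that were higher in MEIS1-OE, the stretch around the transcription start is shown, because these are the windows in which MEIS letters were searched. RefSeq promoter windows of 300 bases, from 250 bases before to 50 bases after a start, were found for all 5 genes, with 7 windows in all since THBS3 and THBS4 have 2 starts each. The windows come from GRCh38.p14 and were located in GRCh37, the build of the counts, by exact match of the sequence. The letters TGACAG and the longer PBX-MEIS letters TGATTGACAG, which contain them, were searched on both strands. Capitals mark the match, and the lines read 5′ to 3′ on the strand of the gene. For THBS3 only 1 of its 2 windows is printed, and the other lies at chr1:155178920-155179219.
THBS2, GRCh37 chr6:169653892-169654191, minus strand: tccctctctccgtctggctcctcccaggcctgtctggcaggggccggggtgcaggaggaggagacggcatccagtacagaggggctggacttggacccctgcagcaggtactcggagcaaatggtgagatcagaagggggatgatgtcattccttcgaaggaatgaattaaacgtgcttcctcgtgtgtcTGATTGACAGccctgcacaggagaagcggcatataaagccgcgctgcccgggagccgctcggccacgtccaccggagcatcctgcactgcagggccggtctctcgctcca
THBS3, GRCh37 chr1:155177639-155177938, minus strand: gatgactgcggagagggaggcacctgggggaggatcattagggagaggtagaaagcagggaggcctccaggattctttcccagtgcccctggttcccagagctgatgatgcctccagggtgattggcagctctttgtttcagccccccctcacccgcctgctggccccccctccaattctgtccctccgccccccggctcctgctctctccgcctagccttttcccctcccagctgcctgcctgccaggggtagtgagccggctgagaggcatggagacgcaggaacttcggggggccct
COMP, GRCh37 chr19:18902065-18902364, minus strand: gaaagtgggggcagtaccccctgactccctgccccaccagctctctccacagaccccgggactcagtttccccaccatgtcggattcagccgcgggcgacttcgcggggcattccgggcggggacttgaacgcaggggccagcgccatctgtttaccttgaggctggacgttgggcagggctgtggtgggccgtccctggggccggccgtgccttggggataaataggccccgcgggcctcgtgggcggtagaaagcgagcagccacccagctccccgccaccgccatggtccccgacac
Among the 7 windows, the window of THBS2 was the 1 with a match, and the match was the full PBX-MEIS letters, which begin 60 bases before the start on the strand of the gene. Over all 35116 RefSeq promoter windows of this length, 15.8% held TGACAG and 0.157% held TGATTGACAG. A match is a description of letters and was not tested for binding, and the other 6 windows lack these letters only within their 300 bases.

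The libraries held 15429985 to 22940493 counted reads, with a median of 20324720. The targeted genes went with the labels in every library. MEIS1 was at 310 ± 14.3 CPM (SD, n = 6) in MEIS1-OE against 17.8 ± 1.10 in ctrl-OE, and at 8.96 ± 1.74 in MEIS1-KO against 25.7 ± 1.66 in ctrl-KO. MEIS2 was at 824 ± 20 CPM in MEIS2-OE against 22.6 ± 1.23 in ctrl-OE, and at 12.1 ± 0.936 in MEIS2-KO against 25.8 ± 1.58 in ctrl-KO. All levels are CPM, the reads of a gene as a share of all reads in the library, over library sizes scaled by edgeR's TMM factors. The 8 neural stem cell markers were all at 1 CPM or more in every condition, with NES between 823 and 2110 CPM and VIM between 1740 and 3420 CPM. Some markers that define other cell types were at or near 0, GFAP of astrocytes at most 0.457 CPM, RBFOX3 of neurons at most 0.0525, CLDN5 of endothelium at most 0.227 and POU5F1 of pluripotent cells at most 0.325. Other genes of the same lists were not, with GJA1 of the astrocyte list between 102 and 326 CPM, MAP2 of the neuron list between 208 and 818, KDR of the endothelial list between 72.7 and 197 and LIN28A of the pluripotency list between 248 and 535. COL3A1 of fibroblasts (143 to 748 CPM), TAGLN of pericytes and smooth muscle (126 to 447) and COL2A1 of chondrocytes (452 to 1040) were also present, with DCN at most 0.402, MYH11 at most 0.318 and ACAN at most 0.591 CPM in those lists.

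THBS1 and THBS3 were the main thrombospondins of these cells, and their order changed with the condition. Levels were divided by kilobases of annotated exon (GENCODE v44 on GRCh37). This makes them only roughly comparable between genes, since the annotation used for counting was not stated. THBS1 was at 14.9 ± 1.72 CPM per kb and THBS3 at 12.4 ± 0.738 CPM per kb in ctrl-OE. There THBS1 made up 48.3 ± 2.65% and THBS3 40.4 ± 2.59% of the family's RNA per kb. By this measure, which depends on the lengths taken, the order was turned round in each MEIS1-OE library. There THBS3 held between 57.3% and 64.9% of the family and THBS1 between 27.6% and 34.7%. In ctrl-KO THBS1 held between 67.6% and 72.6% and THBS3 between 20.6% and 23.8%. The family's sum was highest in MEIS1-OE, at 52.6 ± 1.51 CPM per kb, against 30.7 ± 2.18 in ctrl-OE and 36.3 ± 1.92 in ctrl-KO. THBS4 held between 4.33% and 10.7% in every library, and THBS2 and COMP were minor members, COMP reaching 2.74 ± 0.579% in MEIS1-OE.

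**Figure D1:**
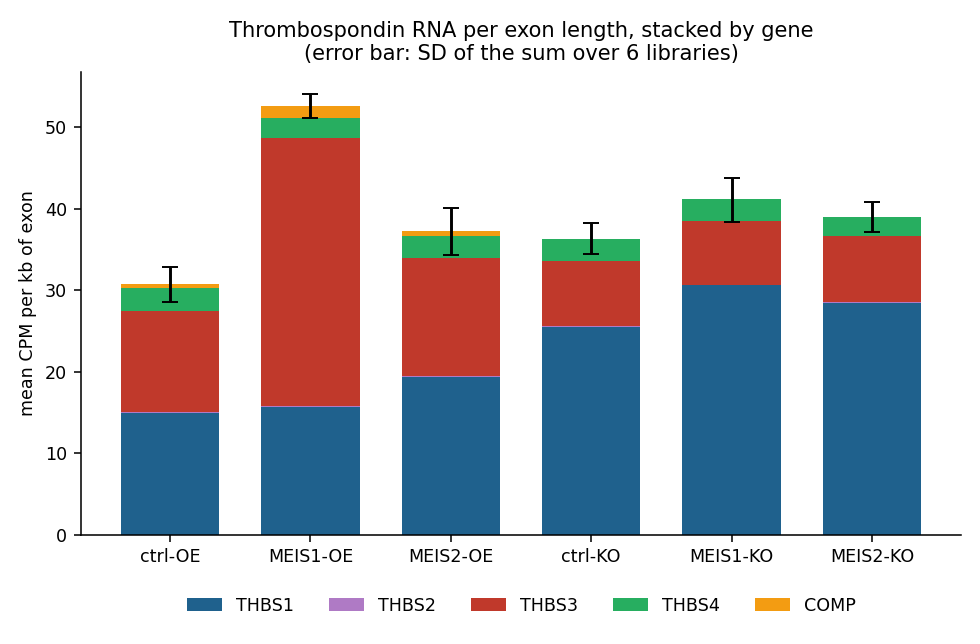
Stacked bars give the mean CPM per kb of exon of each thrombospondin in the 6 conditions, and the error bars the SD of the family's sum over 6 libraries. THBS1 fills most of the bars of the KO arm, near 70.1% in ctrl-KO, and THBS3 fills 62.6% of the MEIS1-OE bar, the tallest at 52.6 CPM per kb.

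THBS3, THBS2 and COMP were higher and THBS4 was lower in MEIS1-OE than in ctrl-OE, while THBS1 did not pass the test. As 1 guide was used, an effect of MEIS1 and one of the guide at other sites cannot be told apart. By edgeR's quasi-likelihood test at an adjusted p under 0.05, 3 of the 5 genes were higher and 1 was lower than in ctrl-OE, where 9.10% of all tested genes were called, 5.52% higher and 3.58% lower. The median log2 fold change of the 5 genes was 1.41, and that of all tested genes was 0. In bulk RNA, fewer cells of a type and less RNA per cell cannot be told apart. Of the marker lists, SOX1 of neural stem cells was called lower, and SYT1 of neurons and PDGFRB of pericytes were called higher in MEIS1-OE. In the chondrocyte list, ACAN was called higher and COL9A1 lower. Astrocyte, fibroblast, endothelial and pluripotency markers had 0 calls by edgeR and 0 by DESeq2, with 2 astrocyte markers and 0 of the others at an unadjusted p under 0.05, and the part of such cells in the thrombospondin values was not tested.

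THBS3, a pentameric member known mainly from the growing skeleton, lies on chr1:155165379-155178842 (GRCh37, minus strand). Its levels in MEIS1-OE were 140 at the lowest, 153 at the median and 159 CPM at the highest, and in ctrl-OE they were 52.5, 57.8 and 61.6 CPM. The 6 MEIS1-OE libraries were all far above the 6 controls, and they were also above every library of the other conditions. The log2 fold change was 1.41 (SE 0.05, 2.66-fold), with an adjusted p of 1.0e-23 by edgeR, rank 8 of all tested genes by p. Reads behind the value numbered between 1158 and 3501 per library.

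COMP, the cartilage oligomeric matrix protein of cartilage and tendon, lies on chr19:18893583-18902114 (minus strand). Its level in MEIS1-OE was 2.57 at the lowest, 4.77 at the median and 5.36 CPM at the highest, against 1.04, 1.42 and 2.86 CPM in ctrl-OE. The groups overlapped by 1 library on each side, since replicate 6 of ctrl-OE, at 2.86 CPM, was above replicate 3 of MEIS1-OE, at 2.57 CPM. The log2 fold change was 1.53 (SE 0.21, 2.88-fold), with an adjusted p of 1.2e-06 by edgeR. This rests on between 23 and 112 reads per library. The 5 tested chondrocyte markers summed to between 525 and 767 CPM in MEIS1-OE and between 599 and 950 CPM in ctrl-OE, nearly all of it COL2A1. ACAN, which defines cartilage, was higher, at 0.266 ± 0.177 CPM in MEIS1-OE and 0.0427 ± 0.0444 in ctrl-OE (adjusted p of 0.0024 by edgeR). COL9A1 of the same list was lower, at 18.1 ± 3.33 against 22.9 ± 3.33 CPM (adjusted p of 0.0171 by edgeR). The part of cartilage cells in the COMP values was not tested.

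THBS2, the closest relative of THBS1 and like it an inhibitor of angiogenesis, lies on chr6:169615875-169654145 (minus strand). It was the least abundant member in the OE arm: its levels were 1.34, 1.67 and 2.16 CPM in MEIS1-OE (lowest, median, highest) and 0.313, 0.66 and 0.767 CPM in ctrl-OE. All 6 MEIS1-OE libraries were above all 6 controls, with between 27 and 48 reads against between 7 and 19. The log2 fold change was 1.5 (SE 0.23, 2.82-fold), with an adjusted p of 1.1e-05 by edgeR. THBS2 carries the PBX-MEIS letters in the window printed above. THBS3 and COMP have no exact match to either set of letters in theirs. The printed THBS3 window does hold tgattggcag, which is close to TGATTGACAG, and whether either stretch is bound was not tested. Near matches were not searched for in a systematic way.

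THBS4, a pentameric member found in muscle, tendon and injured nervous tissue, lies on chr5:79287134-79379110 (plus strand). It moved the other way: its levels were 10.2, 10.8 and 11.9 CPM in MEIS1-OE and 11.8, 13.3 and 14.4 CPM in ctrl-OE. In 5 of the 6 MEIS1-OE libraries the level was below that of every control library. The log2 fold change was -0.27 (SE 0.07, 0.829-fold), with an adjusted p of 0.00793 by edgeR.

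THBS1, an activator of latent TGF-beta and an inhibitor of angiogenesis, lies on chr15:39873280-39891667 (plus strand). Its levels were 129, 142 and 168 CPM in MEIS1-OE and 122, 131 and 166 CPM in ctrl-OE, and the groups overlapped almost wholly. The log2 fold change was 0.07 (95% interval -0.08 to 0.23), with an adjusted p of 0.67 by edgeR, so a change of the size seen for THBS3 lies outside the interval. The counts of exon reads may include reads of opposite-strand genes, as the strand setting of the counting was not stated: exons of THBS1 share 448 bases with FSIP1 and 411 with THBS1-AS1, those of THBS2 share 2249 bases with THBS2-AS1, those of THBS3 share 1198 bases with THBS3-AS1 and 146 with MTX1, and those of THBS4 share 533 bases with THBS4-AS1. The 4 antisense RNAs were not among the tested genes. MTX1, measured beside THBS3, was at 19.9 CPM in MEIS1-OE and 18.6 CPM in ctrl-OE (adjusted p of 0.534 by edgeR).

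**Figure D2:**
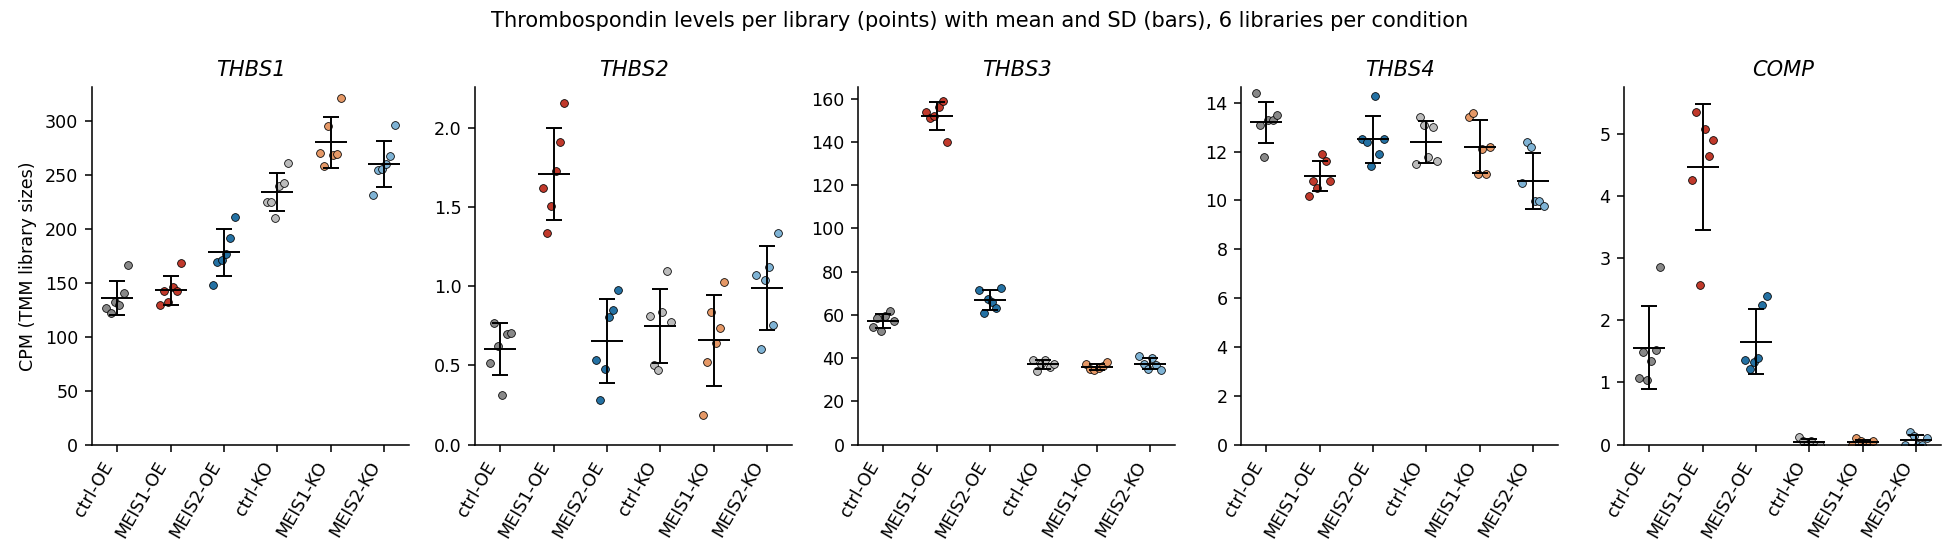
Points give the CPM of each thrombospondin in each of the 36 libraries, by condition, with the mean and SD as bars, and each panel has its own axis from 0. The 6 MEIS1-OE libraries stand above all others for THBS3 (140 to 159 CPM), those for THBS2 (1.34 to 2.16 CPM) start where the highest MEIS2-KO library ends, THBS1 is higher in the KO arm, and COMP is near 0 in all 18 KO libraries.

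A different pair of the family was called in MEIS2-OE, with smaller increases. Here too 1 guide was used, with the same limit as for MEIS1-OE. THBS1 and THBS3 were higher in MEIS2-OE than in ctrl-OE, so that 2 of 5 genes were called higher and 0 lower, where 1.35% of all tested genes were called, 1.07% higher and 0.279% lower. THBS1 was at 148, 174 and 211 CPM in MEIS2-OE (lowest, median, highest), against 122, 131 and 166 CPM in ctrl-OE. In 5 of 6 MEIS2-OE libraries it was above every control library, with a log2 fold change of 0.39 (SE 0.07, 1.31-fold, adjusted p of 0.00138 by edgeR). THBS3 was at 60.8, 66.6 and 72.6 CPM, against 52.5, 57.8 and 61.6 CPM in ctrl-OE, and again 5 of 6 libraries lay above all controls. Its log2 fold change was 0.23 (SE 0.05, 1.17-fold), with an adjusted p of 0.00636 by edgeR, which became 0.0584 when only MEIS2-OE and ctrl-OE were fitted. Of the marker lists of other cell types, 1 gene was called in MEIS2-OE, KDR of the endothelial list, at 114 ± 14 against 88.5 ± 10.2 CPM (1.29-fold, adjusted p of 0.0137 by edgeR), and the part of such cells in the THBS1 and THBS3 values was not tested.

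The other 3 genes did not pass in MEIS2-OE. THBS2 was at 0.279, 0.671 and 0.978 CPM, a log2 difference of 0.11 with a 95% interval from -0.46 to 0.67. COMP was at 1.21, 1.38 and 2.39 CPM, a log2 difference of 0.10 with an interval from -0.39 to 0.59. For both, the increase seen in MEIS1-OE lies outside the interval. THBS4 was at 11.4, 12.4 and 14.3 CPM, a log2 difference of -0.08 (interval -0.22 to 0.06).

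MEIS1-OE and MEIS2-OE were also set against each other, which leaves out the shared control. Here 3 genes were higher and 1 lower in MEIS1-OE, where 7.75% of all tested genes were called, 4.93% higher and 2.82% lower. THBS3 (log2 difference 1.18, SE 0.05, adjusted p of 2.1e-21 by edgeR), COMP (1.43, SE 0.21, adjusted p of 4.6e-06) and THBS2 (1.39, SE 0.24, adjusted p of 4.2e-05) were higher in MEIS1-OE, each in 6 of 6 libraries. THBS1 was lower in MEIS1-OE, with a log2 difference of -0.31 (SE 0.07, adjusted p of 0.0041 by edgeR). THBS4 differed by -0.19 (SE 0.07, adjusted p of 0.107) and did not pass.

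**Figure D3:**
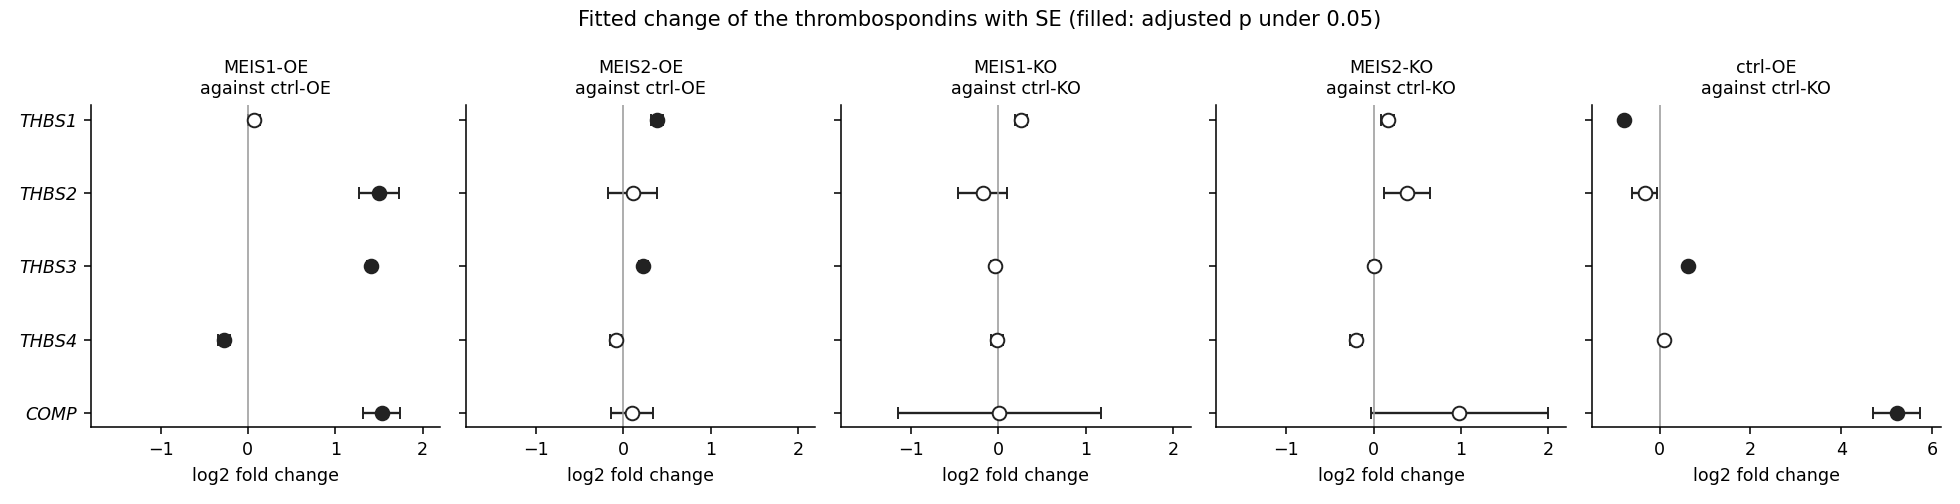
Points give the fitted log2 fold change of each thrombospondin with its SE in 5 comparisons, filled where the adjusted p was under 0.05. THBS2, THBS3 and COMP lie between 1.41 and 1.53 in MEIS1-OE against ctrl-OE, no point of the 2 KO comparisons is filled, and COMP lies at 5.22 in ctrl-OE against ctrl-KO, on a wider axis.

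Knockout of either gene gave no thrombospondin call by edgeR, which is near the shares of all tested genes given below. The authors found a drop of MEIS1 protein hard to detect after knockout, and could not detect an effect of MEIS2-KO on protein. The knockouts are thus described here by the drop in MEIS RNA. In MEIS1-KO against ctrl-KO, 0 of 5 genes passed edgeR's test, where 1.46% of all tested genes were called (1.03% higher and 0.432% lower), with 1 gene (THBS1) at an unadjusted p under 0.05 and 1 gene (THBS1) called by DESeq2. In MEIS2-KO against ctrl-KO, 0 of 5 passed, where 10.0% of all tested genes were called (4.04% higher and 5.98% lower), with 2 genes (THBS1 and THBS4) at an unadjusted p under 0.05 and 0 called by DESeq2.

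THBS1 was at 258, 269 and 321 CPM in MEIS1-KO, at 231, 258 and 296 CPM in MEIS2-KO and at 210, 233 and 261 CPM in ctrl-KO. In 5 of 6 MEIS1-KO libraries and 2 of 6 MEIS2-KO libraries it was above every control library. The log2 difference from ctrl-KO was 0.26 in MEIS1-KO (SE 0.07, adjusted p of 0.0658 by edgeR) and 0.16 in MEIS2-KO (SE 0.07, adjusted p of 0.19). The MEIS1-KO value passed with a stricter filter on low counts (adjusted p of 0.0463 by edgeR), with only the groups compared (0.0479) and with DESeq2 (0.0278), and the MEIS2-KO value with only the groups compared (0.0374). Markers of pericytes and smooth muscle were higher in the same libraries. They summed to between 459 and 560 CPM in ctrl-KO, between 616 and 915 in MEIS1-KO and between 691 and 943 in MEIS2-KO, with 3 and 4 of 6 markers called higher (TAGLN, for example, at 318 ± 88.1 and 346 ± 63.3 against 188 ± 35.5 CPM). COL1A1 of the fibroblast list was also higher, at 64 ± 23.1 CPM in MEIS1-KO and 75.9 ± 17.8 in MEIS2-KO against 36.3 ± 7.82 in ctrl-KO (adjusted p of 0.0408 and 0.00114 by edgeR), and in MEIS2-KO so were COL1A2 (1.2-fold) and the endothelial KDR (1.34-fold) and CDH5 (1.28-fold). Most genes of these lists were not called. Of 6 fibroblast markers, 5 did not pass in MEIS1-KO and 4 in MEIS2-KO, with median log2 differences of 0.11 and -0.03. Of 6 endothelial markers, 4 did not pass in MEIS2-KO. MYH11, which defines smooth muscle, was at most 0.318 CPM, and the part of such cells in the THBS1 values was not tested.

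THBS4 was at 9.77, 10.3 and 12.4 CPM in MEIS2-KO and at 11.5, 12.4 and 13.4 CPM in ctrl-KO, with 4 of 6 MEIS2-KO libraries below every control. The log2 difference was -0.20 (SE 0.07, adjusted p of 0.0715 by edgeR). This call turned on single libraries: without MEIS2-KO replicate 2 the adjusted p was 0.0289, and without replicate 3 it was 0.037. In MEIS1-KO, THBS4 was at 11.1, 12.1 and 13.6 CPM, a log2 difference of -0.02.

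THBS3 did not follow MEIS1 RNA downward. It was at 34.3, 35.9 and 38.2 CPM in MEIS1-KO and at 33.9, 37.4 and 39.1 CPM in ctrl-KO, so the groups overlapped fully. The log2 difference was -0.04, with a 95% interval from -0.15 to 0.06, while MEIS1 RNA fell to 0.348-fold of the control. In MEIS2-KO, THBS3 was at 34.5, 36.9 and 40.8 CPM (log2 difference 0.01, interval -0.09 to 0.11). THBS2 was at 0.186, 0.689 and 1.03 CPM in MEIS1-KO, at 0.603, 1.06 and 1.34 CPM in MEIS2-KO and at 0.471, 0.791 and 1.10 CPM in ctrl-KO, on between 3 and 26 reads per library. The intervals of its log2 differences were wide, from -0.75 to 0.39 in MEIS1-KO and from -0.15 to 0.90 in MEIS2-KO.

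COMP could not be assessed for a decrease in the KO arm, since it was at or near 0 in the control. Of the 6 ctrl-KO libraries, 3 had 0 reads and the highest had 2, with 4 reads in all. MEIS1-KO also had 4 reads in all and MEIS2-KO 9. The ratio of summed reads, scaled for library size, was 1.01 for MEIS1-KO (95% counting interval 0.188 to 5.43) and 2.14 for MEIS2-KO (0.598 to 9.51), and these intervals cover counting error only. A decrease, or an increase smaller than these upper limits, was not detectable at this depth.

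MEIS1-KO set against MEIS2-KO gave 0 calls among the 5 genes by edgeR and 0 by DESeq2, where 0.0152% of all tested genes were called, 0.0102% higher and 0.00508% lower. At an unadjusted p under 0.05 there were 2 genes, THBS2 (log2 difference -0.56) and THBS4 (0.18).

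The effect of overexpression minus the effect of knockout was then tested for each factor, a difference that a change in either arm alone can give. For MEIS1, 2 of 5 thrombospondins were called, both higher, where 3.48% of all tested genes were called, 2.35% higher and 1.14% lower. THBS3 had a difference of 1.45 on the log2 scale (SE 0.07, adjusted p of 3.6e-18 by edgeR, rank 3 of all tested genes by p) and THBS2 had one of 1.68 (SE 0.37, adjusted p of 0.00364). Both rest on the overexpression arm, as their knockout differences did not pass. COMP had 1.52 with an SE of 1.43 (adjusted p of 0.766 by edgeR), THBS4 had -0.25 (adjusted p of 0.218) and THBS1 had -0.19 (adjusted p of 0.478). For MEIS2, 0 of 5 passed by edgeR and 0 by DESeq2, where 2.57% of all tested genes were called (1.39% higher and 1.18% lower), with 2 genes (THBS1 and THBS3) at an unadjusted p under 0.05. The difference was 0.23 for THBS1 (adjusted p of 0.283 by edgeR) and 0.22 for THBS3 (adjusted p of 0.0963).

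The controls of the arms differed for 3 of the 5 thrombospondins, and for some of them by more than any MEIS treatment. THBS1 was lower and THBS3 and COMP were higher in ctrl-OE than in ctrl-KO, where 51.4% of all tested genes were called, 27.5% higher and 23.9% lower. The CRISPR system, the lentiviral vectors and anything else that differed between the arms cannot be told apart here. THBS1 ranged from 122 to 166 CPM in ctrl-OE and from 210 to 261 CPM in ctrl-KO, with no overlap, a log2 difference of -0.78 (SE 0.07, 0.583-fold, adjusted p of 2.1e-11 by edgeR). THBS3 ranged from 52.5 to 61.6 CPM in ctrl-OE and from 33.9 to 39.1 CPM in ctrl-KO, again apart, with a log2 difference of 0.62 (SE 0.05, 1.54-fold, adjusted p of 2.0e-13).

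COMP had 209 reads over the 6 ctrl-OE libraries and 4 over the 6 ctrl-KO libraries. Every ctrl-OE library, at 1.04 CPM or more, was above every ctrl-KO library, at 0.116 CPM or less. The ratio of summed reads scaled for library size was 43.5, with a 95% counting interval from 16.7 to 161. The fitted log2 difference was 5.22 (adjusted p of 5.9e-11 by edgeR), but against a group with libraries at 0 it moves with the small count added before the logarithm, and was 3.62 with a prior count of 2. THBS2 (log2 difference -0.33, adjusted p of 0.338) and THBS4 (0.09, adjusted p of 0.289) did not pass. Of the neural stem cell markers, 7 of 8 were lower in ctrl-OE, with SOX2 at 114 ± 26.8 against 300 ± 13.7 CPM. Among all tested genes 51.4% were called, 27.5% higher and 23.9% lower. Of the chondrocyte markers, 3 of 5 were higher and 1 was lower, with ACAN at 0.0427 ± 0.0444 CPM in ctrl-OE and listed at 0 in ctrl-KO. The summed fibroblast markers ranged from 262 to 433 CPM in ctrl-OE and from 633 to 835 CPM in ctrl-KO. Of these 6 genes, 4 were called lower and 1 higher, with COL3A1 at 178 ± 32.1 against 574 ± 59.3 CPM. COL1A1 went the other way, at 55.7 ± 19.7 against 36.3 ± 7.82 CPM. The part of these differences in the thrombospondin values was not tested.

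Across the 6 conditions each gene thus had its own order of levels. For THBS1 the order by mean was MEIS1-KO, MEIS2-KO, ctrl-KO, MEIS2-OE, MEIS1-OE and ctrl-OE, from 280 ± 23.6 to 136 ± 15.8 CPM, and the ranges of each pair of neighbours overlapped. For THBS3 it was MEIS1-OE, MEIS2-OE, ctrl-OE, MEIS2-KO, ctrl-KO and MEIS1-KO, from 152 ± 6.56 to 36 ± 1.44 CPM, with gaps below MEIS1-OE and below ctrl-OE. COMP was apart between the OE arm and the KO arm, while MEIS1-OE overlapped ctrl-OE by 1 library on each side, and its means ran from 4.47 ± 1.01 CPM in MEIS1-OE to 0.0347 ± 0.0427 CPM in MEIS1-KO. For THBS2, MEIS1-OE was at 1.71 ± 0.293 CPM, and its lowest library and the highest MEIS2-KO library both stood at 1.34 CPM. The other conditions had means between 0.603 ± 0.166 and 0.989 ± 0.265 CPM. THBS4 had no gap between neighbours, with means between 10.8 ± 1.16 in MEIS2-KO and 13.2 ± 0.844 CPM in ctrl-OE. Among replicates, the library numbered 6 was the highest for THBS1 in all 6 conditions, a feature that was picked out after the values were seen.

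The genes whose levels followed each thrombospondin most closely over the 36 libraries differed from member to member. By Pearson's r of log2 CPM, THBS3 was closest to KIF5A, a neuronal kinesin (0.985), to BC033961 (0.984) and to PIANP (0.983). KIF5A was at 88.5 ± 5.60 CPM in MEIS1-OE and 18.7 ± 0.892 in ctrl-OE. THBS1 was closest to HEG1 (0.963), the cell cycle gene CCND1 (0.959) and the actin-binding tropomyosin TPM1 (0.955). COMP was closest to the fucosyltransferase FUT1 (0.973), PGM1 (0.973) and ADAMTS4 (0.97), an aggrecan-cleaving protease. THBS4 had no gene as close, with HLCS at 0.76, MIPEP at 0.704 and GPLD1 at 0.669, and THBS2, at a mean of 0.894 CPM, was left out. These values describe a sorting of libraries that fall into 6 conditions and share the split between the arms, so they carry no test.

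The genes beside THBS3 changed less than THBS3 did in MEIS1-OE. Of the 14 tested genes with a start within 100 kb of the THBS3 start, 3 were higher and 0 were lower, against 5.52% and 3.58% of all tested genes. These were MUC1 (log2 fold change 0.56, adjusted p of 2.2e-04 by edgeR), HCN3 (0.32, adjusted p of 0.00756) and KRTCAP2 (0.24, adjusted p of 5.7e-04). HCN3 was named after the values were seen. MTX1, which starts 356 bases from THBS3 on the other strand, differed by 0.10 (SE 0.07), and the 14 values ran from -1.26 to 0.70. For the other members the nearest tested protein-coding gene on each side is given, whatever its distance. Of these, CRTC1, WDR27, SMOC2, SERINC5, FSIP1 and RASGRP1 start more than 100 kb from the start of the member beside them. Beside COMP, UPF1 differed by 0.04 (SE 0.11) and CRTC1 by -0.12 (SE 0.12). The distant neighbours of THBS2 were both lower: WDR27 by -0.28 (adjusted p of 0.0119 by edgeR) and SMOC2, a matricellular protein at 0.136 ± 0.0371 against 0.301 ± 0.0715 CPM, by -1.13 (adjusted p of 0.0407). Beside THBS4, MTX3, which starts 49 bases away on the other strand, differed by -0.11 (adjusted p of 0.484), and SERINC5 was lower by -0.18 (adjusted p of 0.0249). Beside THBS1, FSIP1 differed by -0.07 and RASGRP1 by -0.32, and neither passed.

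**Figure D4:**
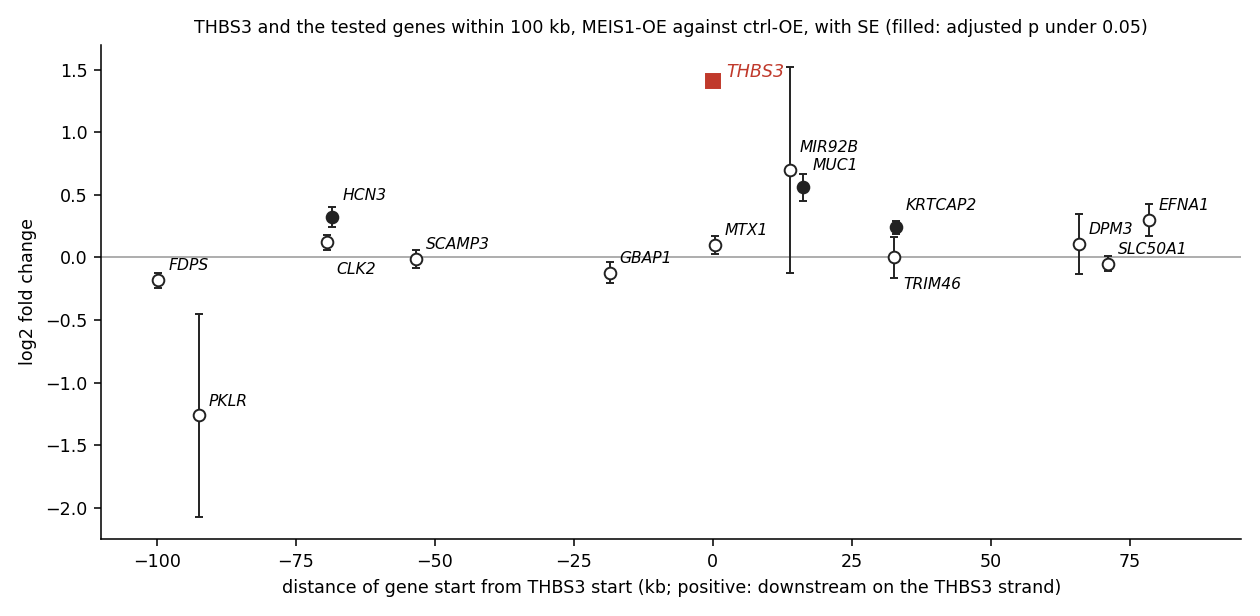
Each point is a tested gene with its start within 100 kb of the THBS3 start, with the log2 fold change in MEIS1-OE against ctrl-OE (SE as bars) over the distance in kb along the THBS3 strand. THBS3 stands at 1.41, and the filled points, those called, lie between 0.24 and 0.56.

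The receptors of the thrombospondins were measured to see which binding partners the cells express along with them. Of 18 membrane proteins that bind a thrombospondin, all 18 were tested, and in MEIS1-OE 3 were higher and 3 were lower (median log2 fold change 0.01, against 0 for all genes), where 5.52% of all tested genes were higher and 3.58% lower. The higher genes were VLDLR and LRP8, reelin receptors that also bind THBS1, and the integrin ITGA3. VLDLR was at 33.6 ± 3.02 CPM in MEIS1-OE and 23.8 ± 2.00 in ctrl-OE (log2 fold change 0.50, adjusted p of 9.0e-07 by edgeR), and LRP8 at 53.4 ± 2.66 and 45.1 ± 3.07 (0.24, adjusted p of 0.00151). ITGA3 was at 45.6 ± 10.4 and 34.0 ± 4.30 CPM (0.43, adjusted p of 0.0269). The lower genes were the receptors through which thrombospondins act on synapses, CACNA2D1 (6.56 ± 0.852 against 8.38 ± 0.569 CPM, log2 fold change -0.35, adjusted p of 0.00801) and NLGN1 (8.16 ± 1.55 against 10.1 ± 1.38, -0.31, adjusted p of 0.0377), and CD47 (74.8 ± 7.28 against 87.3 ± 4.84, -0.22, adjusted p of 0.0196). ITGA3 and NLGN1 are named here after their values were seen.

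In MEIS2-OE, where 1.35% of all tested genes were called, 0 of 18 receptors passed edgeR's test. Of these 18, 2 were at an unadjusted p under 0.05 and 0 were called by DESeq2. In MEIS1-KO 1 of 18 was higher, where 1.03% of all tested genes were, ITGA3 (17.8 ± 4.35 against 12.4 ± 1.46 CPM, log2 fold change 0.52, adjusted p of 0.0491 by edgeR). In MEIS2-KO, where 10.0% of all tested genes were called, 2 were higher, ITGA3 (0.67, adjusted p of 0.00156) and CD36 (0.37, adjusted p of 0.00959), and 3 were lower, VLDLR (-0.31, adjusted p of 0.00264), LRP8 (-0.20, adjusted p of 0.0113) and NLGN1 (-0.32, adjusted p of 0.02). In ctrl-OE against ctrl-KO, where 51.4% of all tested genes were called, 3 were higher and 11 lower, with JAG1 at 58.6 ± 3.56 against 163 ± 8.08 CPM (-1.48, adjusted p of 6.3e-21) and ITGA3 at 34.0 ± 4.30 against 12.4 ± 1.46 (1.46, adjusted p of 1.5e-11).

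**Figure D5:**
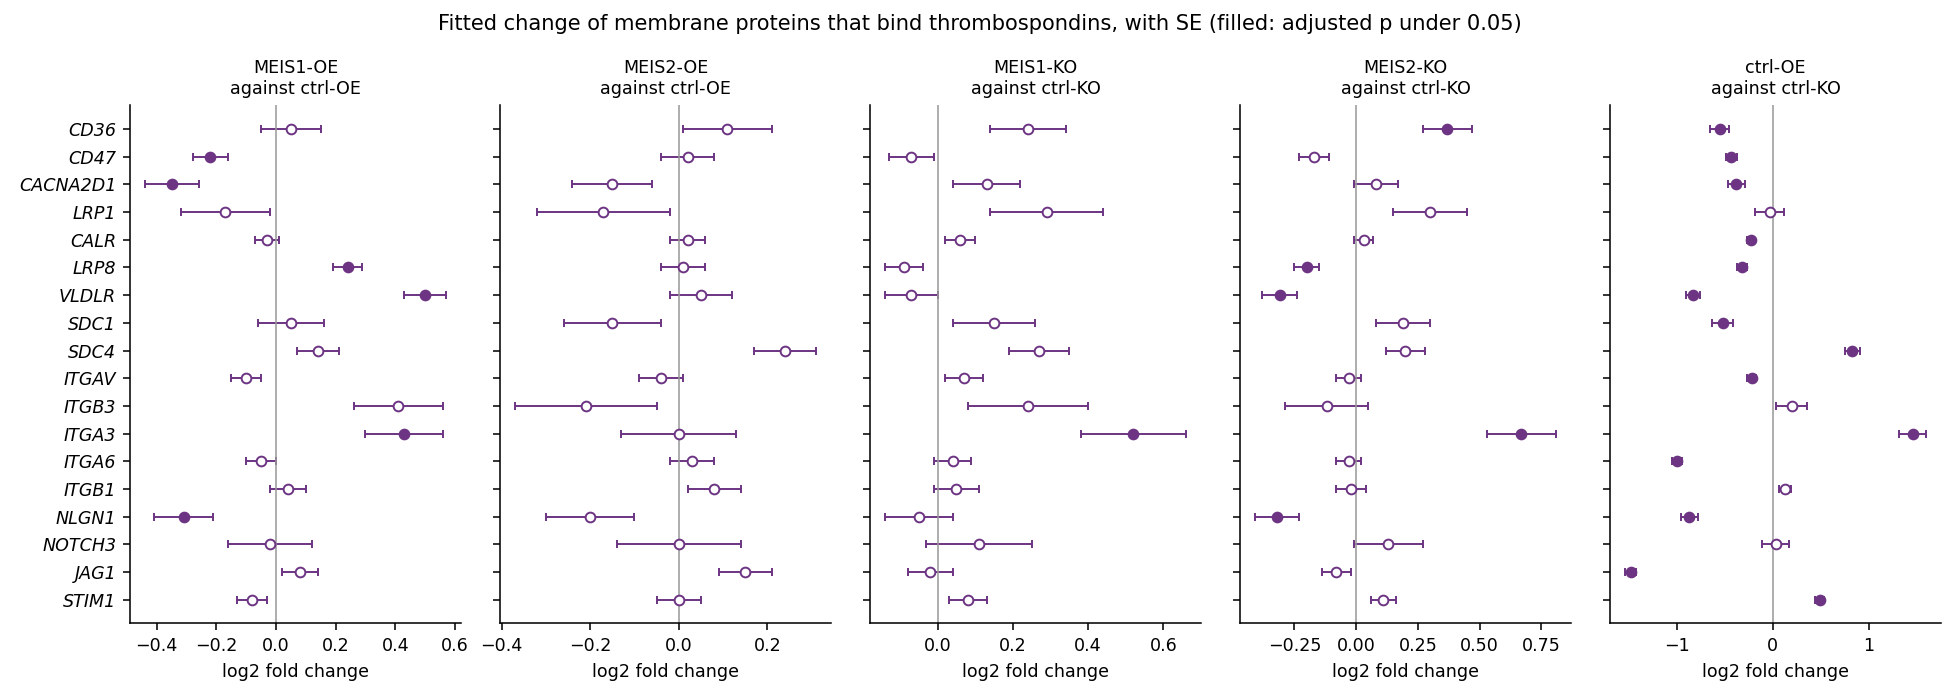
Points give the log2 fold change of 18 membrane proteins that bind thrombospondins, with the SE, in 5 comparisons with their own axes, filled where the adjusted p was under 0.05. In MEIS1-OE, VLDLR (0.50), ITGA3 and LRP8 are filled on the right and CACNA2D1 (-0.35), NLGN1 and CD47 on the left, and in ctrl-OE against ctrl-KO 14 points are filled.

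Of the secreted proteins that thrombospondins bind or act on, 19 of 20 were tested. In MEIS1-OE, where 9.10% of all tested genes were called, 2 of the 19 were higher, VCAN and MMP9, and 2 lower, LTBP1 and COL9A1. VCAN, a large matrix proteoglycan, was at 942 ± 109 against 452 ± 40.1 CPM (log2 fold change 1.06, adjusted p of 2.6e-15 by edgeR). MMP9, a gelatinase, was at 0.645 ± 0.222 against 0.247 ± 0.14 CPM (1.39, adjusted p of 0.00239). LTBP1, which holds latent TGF-beta in the matrix, was at 44.6 ± 5.55 against 54.1 ± 5.26 CPM (-0.28, adjusted p of 0.00352), and the cartilage collagen COL9A1, a partner of COMP, at 18.1 ± 3.33 against 22.9 ± 3.33 (-0.34, adjusted p of 0.0171). TGFB1 did not pass (40.2 ± 5.14 against 36.4 ± 5.08 CPM). In MEIS2-OE, where 1.35% of all tested genes were called, 0 of 19 passed by edgeR. Of these 19, 4 were at an unadjusted p under 0.05 and 1 was called by DESeq2. In MEIS1-KO, where 1.46% of all tested genes were called, 1 was higher (MMP2, 0.28, adjusted p of 0.0309). In MEIS2-KO, where 10.0% were called, 3 were higher, MMP2 (0.38, adjusted p of 4.2e-04), MATN2 (0.21) and MATN3 (0.23), and 2 lower, COL9A1 (-0.40) and, named after its value was seen, VEGFA (-0.19).

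The other matricellular proteins and the other synapse factors held no gene called higher in MEIS1-OE, which for lists of this size is near the 5.52% of all tested genes. These are short lists, and SPARC and SPARCL1 are in both. Against 9.10% of all tested genes called, of 14 tested matricellular proteins 0 were higher and 2 lower, FBLN5 (-0.89, adjusted p of 5.8e-05 by edgeR) and SMOC2, and of 8 astrocyte-secreted synapse factors 0 passed by edgeR, with 3 at an unadjusted p under 0.05 and 0 called by DESeq2. In MEIS2-OE, where 1.35% of all tested genes were called, NOV was the 1 matricellular gene called (-0.58, adjusted p of 0.0219 by edgeR). In the knockouts 2 of 14 matricellular proteins were higher and 0 lower in MEIS1-KO, where 1.46% of all tested genes were called, and 4 were higher and 1 lower in MEIS2-KO, where 10.0% were. SPARC, at 2060 ± 155 CPM in MEIS1-KO and 2080 ± 182 in MEIS2-KO against 1770 ± 53.1 in ctrl-KO, was higher in both (adjusted p of 0.0339 and 0.00632), as was SPP1 (log2 fold change 0.71 and 0.96). In MEIS2-KO, POSTN (0.53, adjusted p of 0.0118 by edgeR) and, named after its value was seen, FBLN5 (0.72, adjusted p of 0.0427) were higher, and SMOC1, at 76.5 ± 12.4 against 145 ± 24 CPM, was lower (-0.92, adjusted p of 0.0378). GPC4 was higher in MEIS1-KO (0.27, adjusted p of 0.0489), and APOE (0.89, adjusted p of 0.0147) and BDNF (0.92, adjusted p of 0.00529) in MEIS2-KO. Of 22 tested proteins that carry thrombospondin type 1 repeats without belonging to the family, 4 were higher and 1 lower in MEIS1-OE, against 5.52% and 3.58% of all tested genes. The Wnt enhancer RSPO1 was at 1.56 ± 0.33 against 0.0948 ± 0.0503 CPM (3.95, adjusted p of 1.3e-08 by edgeR), and SSPO (0.92), ADAMTS4 (0.50) and ADAMTS9 (0.29) were higher as well. BAI3, named after its value was seen, was lower (-0.30, adjusted p of 0.0324). In MEIS2-OE, where 1.35% of all tested genes were called, 0 of 22 passed by edgeR. Of these 22, 4 were at an unadjusted p under 0.05 and 0 were called by DESeq2. In MEIS1-KO 1 was higher, ADAMTS9 (0.27, adjusted p of 0.0114), against 1.03% of all tested genes, and in MEIS2-KO, where 10.0% were called, 2 were higher, ADAMTS9 (0.30) and UNC5B (0.58), and 4 were lower, from -0.36 for BAI3 to -0.56 for SEMA5A, the latter named after its value was seen.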

How the data were processed

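The authors sequenced stranded poly-A libraries of hNSC, 6 for each of 6 conditions, from both ends over 100 bases. Their alignment to hg19 used STAR (2.4.2a in the design text and 2.7.0a, with Trimmomatic 0.39, in the submitters' processing notes) and their counting HTSeq 0.6.0. The annotation and the strand setting are not given in the sources used here. The deposited counts are raw reads per gene symbol, without normalization, and the authors' normalization and tests were not used.

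Genes with at least 10 counts summed over the 36 libraries were tested with edgeR 4.0.16 (R 4.3.3) in 1 fit of 6 groups, with TMM normalization, quasi-likelihood F tests and a prior count of 0.125. All tests were two-sided, Benjamini-Hochberg adjustment ran over the 19689 genes of a comparison, and calls were made at an adjusted p under 0.05. An SE was taken as the size of the log2 fold change over the root of its F value. In all, 9 comparisons were made, and comparisons that share a control are not independent of each other. CPM per kb used the union of exons in GENCODE v44 lifted to GRCh37. The procedure was tested on simulated data.

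The members and all gene lists were chosen with earlier results of these data known. From each list the text names up to 4 called genes with the smallest p per comparison, beside the 5 thrombospondins, their nearest genes, MEIS1 and MEIS2, and the 3 genes with the highest Pearson r (log2 CPM, prior count 2, mean of at least 1 CPM). Genes named outside this rule are said to be so.

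Libraries of a condition differed by more than counting noise (chi-square per degree of freedom from 2.63 to 36), so none was merged. Labels give replicate numbers 1 to 6 in each condition and do not say what a number marks. Deviations of libraries with the same number had correlations from 0.215 to 0.583 in all 6 pairs of MEIS2-OE and ctrl-OE, so these may be paired. In no other comparison was every pair above 0.1. The values given for MEIS2-OE come from the fit without pairing. A replicate block changed no thrombospondin call in MEIS2-OE. Alternatives were DESeq2 1.42.0, other size factors, filters and prior counts, fits of only the groups compared, the replicate block, CPM over plain totals and leaving out each library.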

Additional observations from a re-analysis of the deposited data

Results flagged for a closer look

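In 2 of the 30 sets of 6 libraries (5 thrombospondins in 6 conditions), 1 library stood apart from the others by Dixon's test at the 95% level, which chance alone does in about 1 in 20 sets. THBS4 in MEIS2-OE replicate 4 was at 14.3 CPM, above the other MEIS2-OE libraries, which reached 12.5 CPM. COMP in ctrl-OE replicate 6 was at 2.86 CPM, above the other ctrl-OE libraries, which reached 1.53 CPM. Without that ctrl-OE library the log2 fold change of COMP in MEIS1-OE was 1.78, and it was 1.53 with all libraries. The cause of either value was not tested.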

How the results depend on the processing

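The 4 thrombospondin calls in MEIS1-OE held in all 19 alternatives run for each, as did both calls in MEIS2-OE except that THBS3 missed the threshold when only MEIS2-OE and ctrl-OE were fitted (adjusted p of 0.0584 by edgeR), which left 1 call of 2. In MEIS1-KO the count of called members went from 0 to 1, always THBS1, by DESeq2 (adjusted p of 0.0278), and by edgeR with filterByExpr (0.0463), with only the groups compared (0.0479) and with the replicate block (1.6e-04). In MEIS2-KO it went from 0 to 1 with only the groups compared (THBS1, 0.0374) and with the replicate block (THBS1, 0.0108), and ranged from 0 to 1 when single libraries were left out, with THBS4 called without MEIS2-KO replicate 2 (0.0289) or replicate 3 (0.037). The count for the difference between the MEIS2-OE and MEIS2-KO effects went from 0 to 1 with the replicate block (THBS1, 0.0181). The labels do not say what a replicate number marks, and 14 of 36 libraries correlated best with their own number, of the 6 numbers. Between conditions, deviations had a mean correlation of 0.0993 for libraries of the same number and -0.021 for libraries of other numbers. No called value reversed. Of 660 values without 1 library, 658 kept their call and 2 gained one; of 314 under other settings, 306 kept it, 7 gained and 1 lost it. Over all genes, the calls in MEIS1-KO numbered 287, against 435 by DESeq2, 458 with the replicate block, 140 without MEIS1-KO replicate 3, 187 without ctrl-KO replicate 6 and 433 without MEIS1-KO replicate 2; those between the knockouts numbered 3, against 7 by DESeq2, and those of the MEIS2 difference 506, against 835 with only the groups compared. The cause of these changes was not tested. The ctrl-OE to ctrl-KO log2 difference of COMP, with 4 reads in ctrl-KO, ran from 3.62 to 5.84 over the settings, and a decrease of COMP in the knockouts could not be assessed on those 4 reads.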
